A study of Mus musculus with 4 samples.

Results

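The genes described here were 10 members of the glycolytic pathway, Slc2a1, Hk2, Gpi1, Aldoa, Tpi1, Gapdh, Pgk1, Pgam1, Pkm and Ldha, measured in CD45+ cells of the mouse thalamus and hippocampus (HPC) after cortical brain injury. They were chosen by gene symbol alone, and 11 of the 32285 gene rows carried 1 of the 10 symbols. Aldoa appeared under a second identifier (ENSMUSG00000114515), which was too rarely counted to be tested, so that Aldoa below stands for ENSMUSG00000030695. Glycolysis breaks glucose down to pyruvate in the cytoplasm, which yields ATP without oxygen and feeds the mitochondria and several biosynthetic branches. Slc2a1 encodes the glucose transporter GLUT1, Hk2 a hexokinase that traps glucose inside the cell, and Ldha a lactate dehydrogenase subunit that turns pyruvate into lactate, while the other members encode enzymes of the steps between. Microglia, the resident macrophages of the brain, are known to shift toward glycolysis when they become reactive.

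Both groups were C57B6/J mice with a cortical brain injury, and no uninjured mice were analysed here. The labels give no time after injury, age or sex, and the study states that female mice were used for most of its experiments. Per its methods, tissue of the injured hemisphere was Dounce-homogenized, live CD45+ cells were sorted, and cells of 4 mice per region were pooled. The labels list 4 multiplexing oligos per region, and the cells of each region came as 4 matrices, called sets here. That each set held the cells of 1 mouse is an inference from these counts, stated by neither source. If it does not hold, the sets are technical parts of 1 library. In either case p-values describe the spread between sets, each region was 1 library, and region and library cannot be told apart. The 8 sets held 9789875 to 26636526 UMIs (unique molecular identifiers, 1 per captured mRNA) and median depths of 4261.5 to 4657 UMIs per cell, with no barcode shared within a region and 65 shared between the regions.

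Of 24939 cells kept, 19114 passed a marker gate for microglia (1747 to 3516 per set), 2879 for T cells, 880 for neutrophils, 272 for monocytes and 131 for dendritic cells. Microglia were further gated as homeostatic (11471 cells) from genes such as P2ry12, Tmem119 and Sall1, and as DAM (disease-associated microglia, 2615 cells) from genes such as Spp1, Cst7, Lpl and Cd9. The homeostatic gate also set an upper limit of 30 UMIs per 10,000 on the summed level of the DAM genes. No glycolysis gene entered a gate. DAM-gated cells made up 1.28 to 5.18% of microglia in the HPC sets and 17.6 to 43.4% in the thalamus sets. The gates cut continuous scores, and 1146 microglia lay within 20% of the DAM cut. Levels are given as UMIs of a gene per 10,000 UMIs of the same cells. They count 3' ends and are not per length, so they are compared between cells and not between genes, and log2 fold changes come from edgeR on sums per set.

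The members lie on 6 chromosomes of the mm10 build. Gapdh (chr6:125161715-125166467), Hk2 (chr6:82725025-82774454) and Tpi1 (chr6:124810586-124814296) are on the minus strand of chromosome 6. Aldoa (chr7:126795234-126800751) and Gpi1 (chr7:34201330-34230336) are on the minus strand and Ldha (chr7:46841475-46855627) on the plus strand of chromosome 7. Slc2a1 (chr4:119108711-119137983), Pkm (chr9:59656368-59679375), Pgam1 (chr19:41911923-41918660) and Pgk1 (chrX:106187100-106203699) are on plus strands. Gapdh, Aldoa and Ldha have near-identical copies elsewhere in the genome, so reads shared with such copies leave a small uncertainty in their levels.

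Promoter sequence is shown for 4 members that span the patterns described below. Pgk1 (chrX:106186850-106187099, plus strand) and Gapdh (chr6:125165774-125166023, minus strand) were higher in DAM-gated than in homeostatic-gated cells, Slc2a1 (chr4:119108495-119108744, plus strand) changed little, and Hk2 (chr6:82774455-82774704, minus strand) went the other way. Each line gives the 250 bases before a RefSeq start (GRCm38.p6), 5' to 3' on the strand of the gene. Capitals mark ACGTG or CACGT, the same 5 letters on either strand. They are a form of the core of the element that hypoxia-inducible factors are known to bind. The form that starts with G (GCGTG) was not searched or marked, and it occurs for example in the Gapdh window.
Pgk1: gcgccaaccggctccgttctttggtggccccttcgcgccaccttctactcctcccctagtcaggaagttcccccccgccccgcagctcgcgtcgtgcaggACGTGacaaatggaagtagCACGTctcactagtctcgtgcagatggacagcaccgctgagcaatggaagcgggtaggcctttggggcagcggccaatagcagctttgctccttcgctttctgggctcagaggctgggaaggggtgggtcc
Gapdh: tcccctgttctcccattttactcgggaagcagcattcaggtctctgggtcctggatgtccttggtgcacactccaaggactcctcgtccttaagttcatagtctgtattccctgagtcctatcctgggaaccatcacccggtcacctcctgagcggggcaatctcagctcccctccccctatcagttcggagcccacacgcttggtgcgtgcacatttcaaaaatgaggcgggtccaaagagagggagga
Slc2a1: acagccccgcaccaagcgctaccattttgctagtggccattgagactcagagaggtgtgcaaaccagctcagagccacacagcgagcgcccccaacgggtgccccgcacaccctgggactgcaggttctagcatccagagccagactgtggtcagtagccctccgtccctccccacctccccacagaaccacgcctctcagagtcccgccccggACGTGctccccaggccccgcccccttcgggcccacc
Hk2: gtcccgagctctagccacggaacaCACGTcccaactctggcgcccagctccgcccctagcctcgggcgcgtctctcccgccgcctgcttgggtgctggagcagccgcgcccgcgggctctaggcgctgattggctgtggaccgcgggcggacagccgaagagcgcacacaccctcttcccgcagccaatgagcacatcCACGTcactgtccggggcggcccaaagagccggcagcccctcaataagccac

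All 10 members had a promoter window in the RefSeq table. Of these members, 7 of 10 held these letters in at least 1 window, against 4998 of 27025 genes (18.5%). Counted by window, 8 of 14 member windows (57.1%) held them, against 5444 of 32851 windows of the same length (16.6%). The Aldoa windows with the letters overlapped and shared the same match, which the window count holds more than once. The genes and windows used as reference were not matched to the members for base composition or for the number of windows per gene. The letters were present in Hk2 and Slc2a1 as in Pgk1, and absent from the Gapdh, Gpi1 and Tpi1 windows. Of the 2 Ldha windows, 1 held 5 matches, with both strands overlapping as CACGTG, and the other held 0. A match describes the letters only, and factor binding was not measured.

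The comparison of thalamic with hippocampal microglia asked whether glycolysis genes differed between the regions after cortical injury. In the sum of all microglia, 8 members were higher in the thalamus, Hk2 was lower, and Slc2a1 did not pass the test. Gapdh, which encodes the dehydrogenase in the middle of the pathway, was 1.88-fold higher, and Pkm, which encodes the pyruvate kinase of the last step, was 1.96-fold higher. Of 13081 genes tested, 8.51% were called higher and 4.51% lower. The members' median log2 fold change was 0.72, against -0.02 over all genes.

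Set by set, Gapdh stood at 2.52, 2.49, 2.64 and 2.69 UMIs per 10,000 in HPC microglia and at 5.83, 4.09, 4.16 and 4.49 in thalamic microglia. The lowest thalamic set lay above the highest HPC set, and the log2 fold change was 0.91 ± 0.12 (SE; adjusted p = 0.00224, edgeR quasi-likelihood with Benjamini-Hochberg adjustment). Pkm stood at 1.07, 0.935, 0.842 and 0.921 in the HPC sets and at 2.19, 1.61, 1.56 and 1.71 in the thalamic sets (log2 fold change 0.97 ± 0.13, edgeR adjusted p = 0.00282). Here too the groups did not overlap, and set 1 was the highest of the thalamic sets.

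The enzymes above Gapdh were also higher in the thalamus. Gpi1, which converts glucose 6-phosphate to fructose 6-phosphate, averaged 0.997 ± 0.076 (SD, n = 4 sets) in the thalamus and 0.709 ± 0.072 in the HPC (log2 0.55 ± 0.10, edgeR adjusted p = 0.00913). Aldoa, which splits the 6-carbon sugar, averaged 1.94 ± 0.27 against 1.26 ± 0.11 (log2 0.69 ± 0.12, edgeR adjusted p = 0.00635). Tpi1, which interconverts the products of that split, averaged 1.11 ± 0.13 against 0.667 ± 0.030 (log2 0.80 ± 0.09, edgeR adjusted p = 0.00139). None of these 3 overlapped between regions.

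Below Gapdh, the ATP-forming kinase Pgk1 averaged 0.622 ± 0.105 in the thalamus and 0.356 ± 0.024 in the HPC (log2 0.87 ± 0.13, edgeR adjusted p = 0.00337). The mutase Pgam1 averaged 1.08 ± 0.11 against 0.671 ± 0.032 (log2 0.75 ± 0.08, edgeR adjusted p = 0.000936). Ldha averaged 1.25 ± 0.13 against 0.832 ± 0.048 (log2 0.66 ± 0.09, edgeR adjusted p = 0.00251).

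The members at the entry of the pathway, Hk2 and Slc2a1, behaved differently. Hk2 stood at 2.24, 2.23, 2.23 and 2.27 UMIs per 10,000 in the HPC sets and at 1.77, 1.90, 1.91 and 1.91 in the thalamic sets. It was lower in every thalamic set than in any HPC set, by a small amount (log2 fold change -0.20 ± 0.04, edgeR adjusted p = 0.0179). That call was lost without HPC set 2 (adjusted p = 0.0525) and without HPC set 4 (adjusted p = 0.0614). Slc2a1 stood at 0.849, 0.700, 0.665 and 0.796 in the HPC and at 0.715, 0.777, 0.795 and 0.792 in the thalamus, and these ranges overlapped (log2 0.09, 95% interval -0.09 to 0.27, edgeR adjusted p = 0.547). For the other 9 members the sets of the 2 regions did not overlap, as for 20.8% of all genes tested. Thalamic set 1 was the highest set for 8 members and the lowest for Hk2 and Slc2a1, and it also had the highest share of DAM-gated cells.

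Some other measures moved with region. Malat1, a nuclear noncoding RNA that is scarce in cells that have lost nuclear RNA, stood at 244 to 255 UMIs per 10,000 in HPC microglia and at 172 to 209 in thalamic microglia, and microglia with under 40 made up 0.153 to 1.85% and 4.87 to 16.1%. Without these Malat1-poor cells the same 8 members were called higher in the thalamus, with smaller log2 fold changes such as 0.69 for Gapdh and 0.66 for Pgk1, and Hk2 was still lower (-0.18). The 4 choroid plexus markers summed in microglia to 0.0055 to 0.012 in the HPC and 0.465 to 0.646 in the thalamus, nearly all from Ttr. The 20 dissociation genes summed to 52.3 to 66.0 and 54.3 to 78.2. The 9 T cell markers summed to 0.267 to 0.399 and 0.567 to 0.626, the 8 monocyte markers to 0.244 to 0.503 and 0.463 to 1.20, and the 9 macrophage markers to 0.0905 to 0.443 and 0.275 to 0.491, with Lyve1 and Cd209f at 0 in both. The part of these other cell types in the result was not tested.

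**Figure D1:**
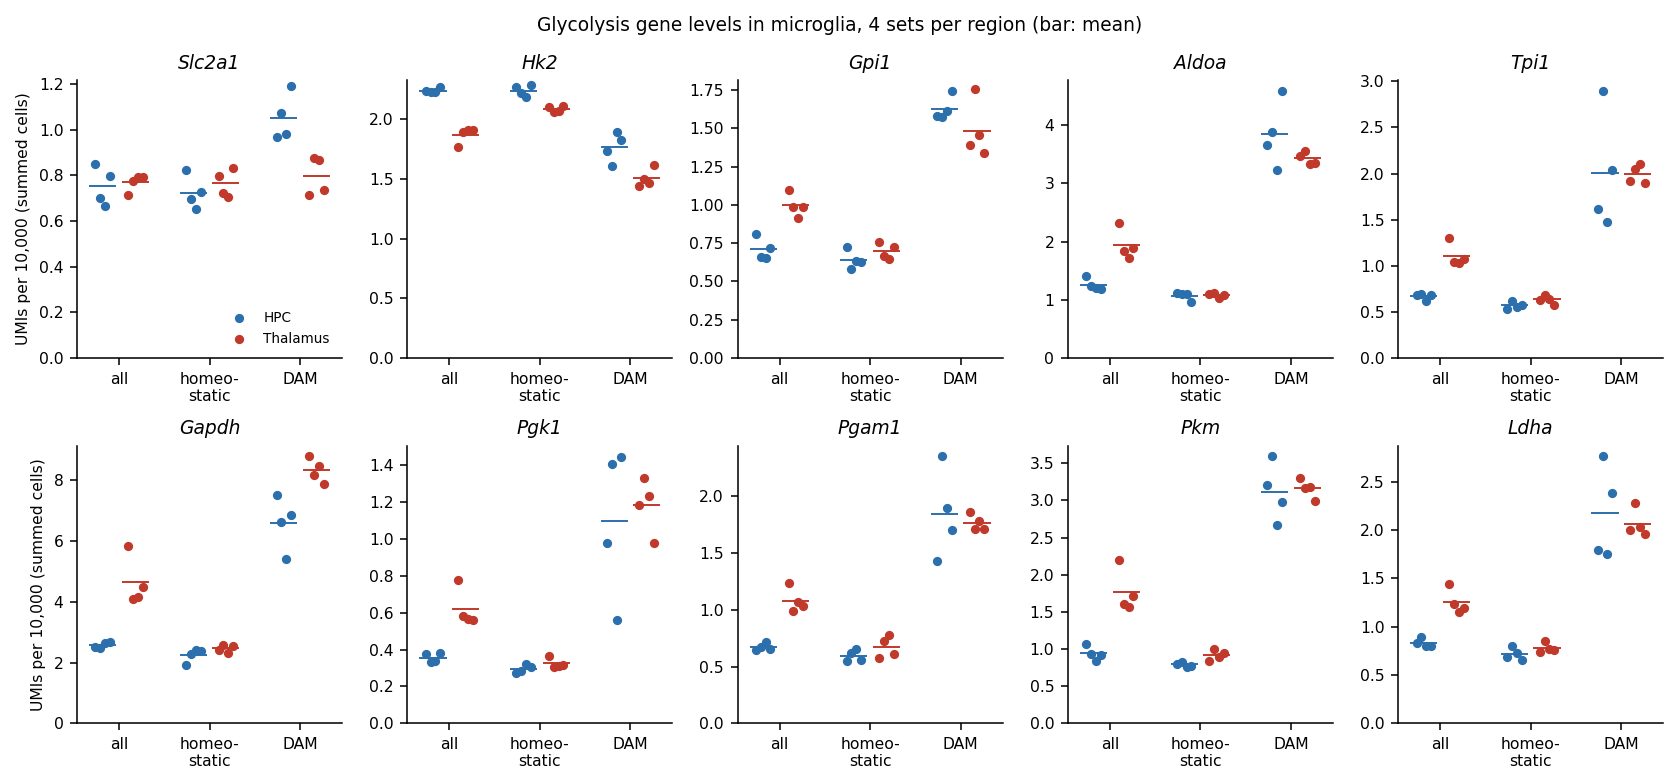
Level of each of the 10 glycolysis genes (UMIs per 10,000, linear axis, 1 panel per gene) in all, homeostatic-gated and DAM-gated microglia. Points are the 4 sets of each region (HPC blue, thalamus red) and bars are means; in all microglia the thalamic points of 8 genes lie above the HPC points, while within the gates the regions overlap for most genes.

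Regions were then compared within the homeostatic-gated and the DAM-gated cells, and the other states were not compared between regions. In homeostatic-gated cells 0 of 10 members passed the test in edgeR or in DESeq2, and 0.873% of 12030 genes were called. At an unadjusted p under 0.05 there were 3 members, against 12.6% of all genes. Gapdh stood at 1.92, 2.27, 2.42 and 2.36 in the HPC sets and at 2.40, 2.58, 2.33 and 2.55 in the thalamic sets. The ranges overlapped, and the log2 fold change of 0.13 had a 95% interval from 0.01 to 0.26. Pkm stood at 0.800, 0.827, 0.764 and 0.778 against 0.846, 0.999, 0.893 and 0.947 (log2 0.21, edgeR adjusted p = 0.163). With the set number as a block Pkm was called (adjusted p = 0.0304), the only member for which this changed the call. Hk2 averaged 2.09 ± 0.03 in the thalamus and 2.24 ± 0.05 in the HPC (log2 -0.11, edgeR adjusted p = 0.385).

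In DAM-gated cells 0 of 10 members passed in edgeR or in DESeq2, and 1.39% of 9524 genes were called. At an unadjusted p under 0.05 there were 2 members, against 12.5% of all genes. HPC DAM-gated cells were few, 182, 46, 25 and 41 per set. Gapdh stood at 7.52, 6.61, 5.40 and 6.85 in the HPC sets and at 8.79, 8.17, 8.46 and 7.87 in the thalamic sets, which did not overlap (log2 0.33, 95% interval 0.11 to 0.56, edgeR adjusted p = 0.20). Slc2a1 went the other way, at 0.968, 1.08, 0.982 and 1.19 in the HPC and 0.713, 0.877, 0.869 and 0.735 in the thalamus (log2 -0.38, 95% interval -0.64 to -0.11, edgeR adjusted p = 0.216). Pkm averaged 3.16 ± 0.13 against 3.11 ± 0.39 (log2 0.03, 95% interval -0.19 to 0.24). With a looser DAM gate Gapdh was called higher (log2 0.53, adjusted p = 0.00634) and Hk2 lower (-0.37, adjusted p = 0.0258) in the thalamus. Without Malat1-poor cells the log2 fold change was 0.16 for Gapdh (edgeR adjusted p = 0.568) and -0.13 for Pkm, and neither was called. The DAM markers of the gate summed to 115 to 128 in the HPC sets and 160 to 319 in the thalamic sets. Malat1-poor cells made up 4.0 to 23.1% and 21.5 to 32.9% of DAM-gated cells. The part of these differences in the members' values was not tested.

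Summed over the 10 members, the level was 11.0 ± 0.3 UMIs per 10,000 in HPC microglia and 16.1 ± 1.8 in thalamic microglia. In homeostatic-gated cells it was 9.90 ± 0.15 and 10.4 ± 0.2, and in DAM-gated cells 25.1 ± 2.8 and 25.7 ± 0.9. The homeostatic-gated sums did not overlap (9.72 to 10.0 in the HPC and 10.2 to 10.7 in the thalamus), while the DAM-gated sums did. The members' median log2 fold change in homeostatic-gated cells was 0.12, against -0.003 over all genes. Genes induced by tissue dissociation and early activation, which can also follow handling, moved with region in the homeostatic-gated cells, where 5 of 19 tested were higher in the thalamus. Among them were Ier2 (log2 0.90) and Atf3 (log2 0.92), and their part in the members' values was not tested.

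**Figure D2:**
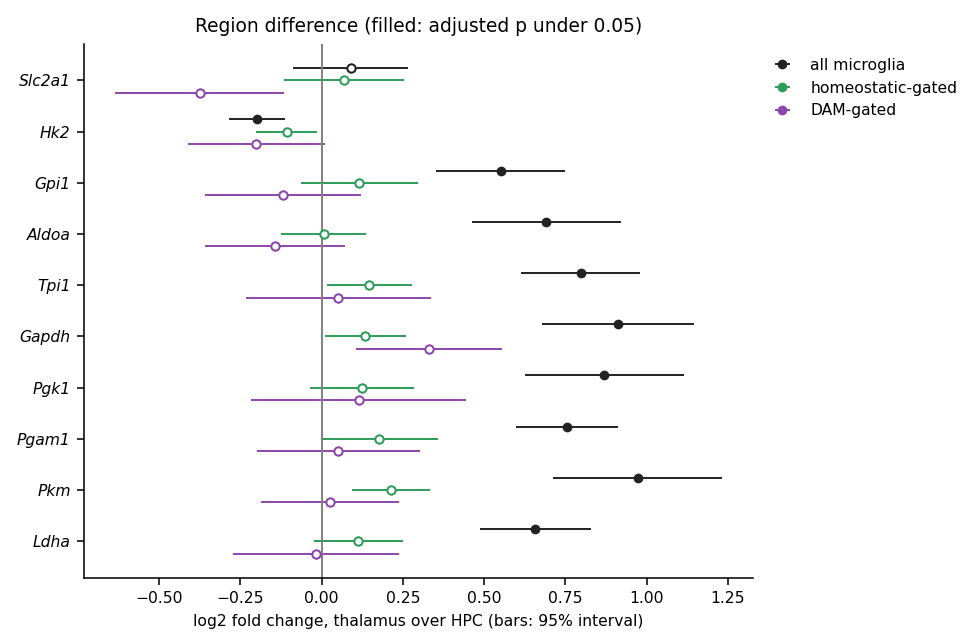
Log2 fold change of thalamus over HPC for each member in all, homeostatic-gated and DAM-gated microglia, with bars for the 95% interval and filled points for adjusted p under 0.05. In all microglia 9 of 10 points are filled, and in the gated cells none is.

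The comparison of states asked how the pathway differed between DAM-gated and homeostatic-gated cells of the same 8 sets. All 10 members were called, 9 higher and Hk2 lower in DAM-gated cells, with log2 fold changes above 1.3 for 8 of them. Pgk1 was 4.23-fold, Pkm 4.17-fold, Aldoa 3.81-fold and Gapdh 3.69-fold higher. Of 11177 genes tested, 24.5% were called higher and 28.4% lower, and the members' median log2 fold change was 1.78 against -0.06 over all genes. The fit held the set as a block, and TMM scaling set the median of all genes near 0.

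Pkm stood between 0.764 and 0.999 in homeostatic-gated cells and between 2.67 and 3.60 in DAM-gated cells (log2 2.06 ± 0.06, edgeR adjusted p = 6.28e-22). Every DAM-gated sum lay above every homeostatic-gated sum. Gapdh averaged 2.35 ± 0.20 (SD, n = 8 sets) in homeostatic-gated and 7.46 ± 1.12 in DAM-gated cells (log2 1.89 ± 0.08, edgeR adjusted p = 3.65e-19). Pgk1 averaged 0.311 ± 0.028 and 1.14 ± 0.29 (log2 2.08 ± 0.09, edgeR adjusted p = 7.55e-18). For 9 members, all but Slc2a1, the 2 states did not overlap, as for 21.0% of all genes.

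The remaining enzymes followed in a narrow band. Aldoa averaged 1.08 ± 0.06 in homeostatic-gated and 3.64 ± 0.44 in DAM-gated cells (log2 1.93), and Tpi1 0.603 ± 0.050 and 2.00 ± 0.42 (log2 1.90). Pgam1 averaged 0.634 ± 0.082 and 1.81 ± 0.26 (log2 1.67), and Ldha 0.75 ± 0.06 and 2.12 ± 0.34 (log2 1.66). Gpi1 had the smallest rise of the 8, from 0.67 ± 0.06 to 1.56 ± 0.15 (log2 1.35 ± 0.07, edgeR adjusted p = 7.86e-16). Each of these 5 was higher in DAM-gated cells in 8 of 8 sets.

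Hk2 and Slc2a1 again stood apart from the other 8 members. Hk2 averaged 2.16 ± 0.09 in homeostatic-gated and 1.64 ± 0.17 in DAM-gated cells and was lower in 8 of 8 sets (log2 -0.23 ± 0.06, edgeR adjusted p = 0.00129). The fitted change is smaller than the ratio of these levels because TMM raised the scaled levels of DAM-gated cells, and with library totals alone it was -0.44. The Hk2 call was lost with a stricter gate (log2 -0.12, adjusted p = 0.201), with a looser gate (-0.03, adjusted p = 0.659) and in the HPC sets alone (-0.18, adjusted p = 0.369). Slc2a1 averaged 0.745 ± 0.065 and 0.926 ± 0.163 and was higher in DAM-gated cells in 6 of 8 sets (log2 0.37 ± 0.08, edgeR adjusted p = 0.000506). With library totals alone it was 0.16 and not called (adjusted p = 0.109). For the other 8 members the call and direction held with library totals, with log2 fold changes of 1.15 (Gpi1) to 1.88 (Pgk1).

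Malat1 moved with state as well, at 126 to 145 UMIs per 10,000 in thalamic and 181 to 212 in HPC DAM-gated cells against 216 to 237 and 246 to 260 in homeostatic-gated cells. Malat1-poor cells made up 4.0 to 32.9% of DAM-gated cells per set and at most 0.71% of homeostatic-gated cells. Without them all 9 members were still called higher, with log2 fold changes of 1.85 for Pgk1, 1.87 for Pkm, 1.63 for Gapdh and 0.45 for Slc2a1, and Hk2 was still lower (-0.15, edgeR adjusted p = 0.0361). The dissociation genes as a whole went down, 4 of 18 higher and 11 lower in DAM-gated cells, with a median log2 fold change of -0.76. The 8 monocyte markers summed to 0.185 to 0.487 in homeostatic-gated and 0.763 to 4.71 in DAM-gated cells, mostly from Fn1, while Ly6c2 and Ccr2 stood under 0.05 in the DAM-gated cells of both regions. The 9 macrophage markers summed to 0.0719 to 0.264 and 0.281 to 1.14. Their part in the members' values was not tested.

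The change from homeostatic-gated to DAM-gated cells did not differ detectably between regions. The region-by-state interaction called 0 of 10 members in edgeR, and 0.832% of all genes were called. At an unadjusted p under 0.05 there was 1 member, against 9.17% of all genes. DESeq2 was not run for it. The interaction ranged from -0.34 (Slc2a1, 95% interval -0.67 to -0.01, edgeR adjusted p = 0.543) to 0.20 (Gapdh, -0.05 to 0.45, adjusted p = 0.711) on the log2 scale. Fitted in the thalamus alone and in the HPC alone, the log2 change of Pkm was 2.04 and 2.15, that of Pgk1 2.11 and 2.10, and that of Gapdh 2.02 and 1.76.

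Microglia were also divided by the summed level of the DAM list, with limits chosen after seeing the data, to show how the members ran across the DAM cut. This is a description, without a test. In cells with 0 to 10 UMIs of the list per 10,000 the sum of the 10 members had a median over sets of 9.25. It was 10.2 at 10 to 20, 11.5 at 20 to 30, 14.3 at 30 to 60, 21.2 at 60 to 120 and 31.1 above 120, where 5 sets had at least 20 cells. These medians went up in every step, including those below the cut of 60. From the lowest to the highest of these bins Gapdh ran from 2.04 to 10.5 and Pkm from 0.742 to 3.96. Hk2 stayed between 2.11 and 2.22 up to 60 and was 1.83 and 1.41 in the top bins, and Slc2a1 moved between 0.674 and 0.860. Malat1 ran from 251 to 122 over the same bins.

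**Figure D3:**
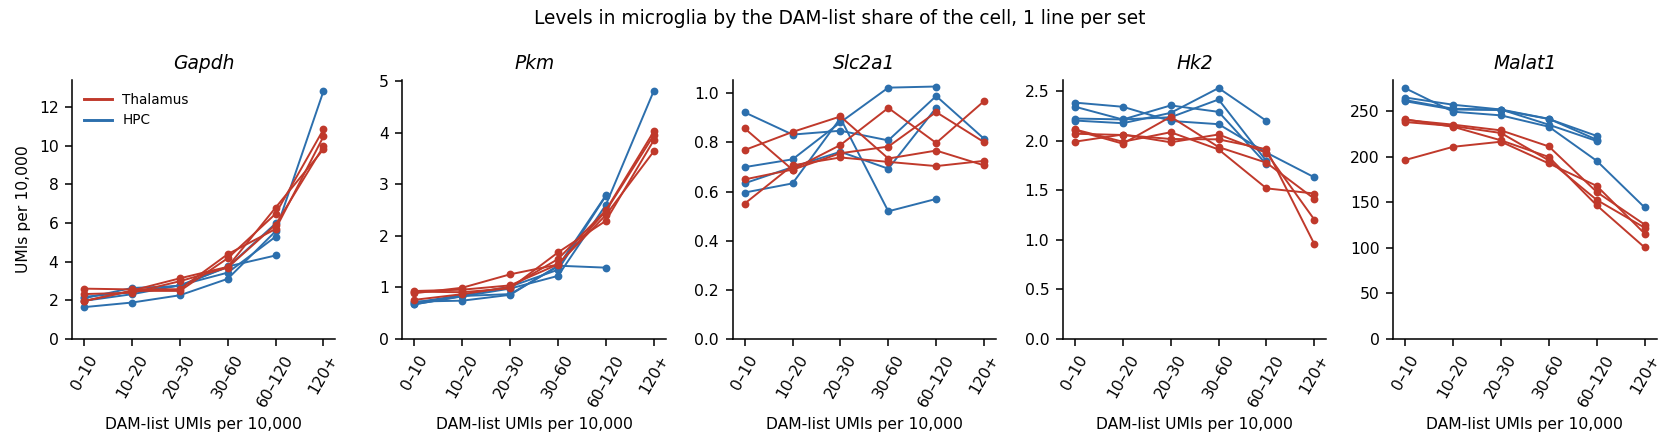
Levels of Gapdh, Pkm, Slc2a1, Hk2 and Malat1 (UMIs per 10,000) in microglia divided by the summed level of the DAM list, 1 line per set (HPC blue, thalamus red). Gapdh and Pkm run upward, Hk2 turns down in the top bins, and the lines of both regions overlap for Gapdh, Pkm and Slc2a1, while for Malat1 the HPC lines lie above the thalamic lines.

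DAM-gated cells were also divided by Malat1, again without a test. In the 5 sets with at least 20 Malat1-poor DAM-gated cells (690 cells) the sum of the 10 members had a median of 44.1 UMIs per 10,000, against 22.6 in the other DAM-gated cells of 8 sets. Gapdh was 18.3 against 6.45 and Pkm 6.28 against 2.78. Hk2 was 0.464 against 1.72 and Slc2a1 0.177 against 0.991. These cells had Malat1 levels of 5.59 to 7.46, and whether they were damaged or stripped of nuclear RNA was not tested.

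**Figure D4:**
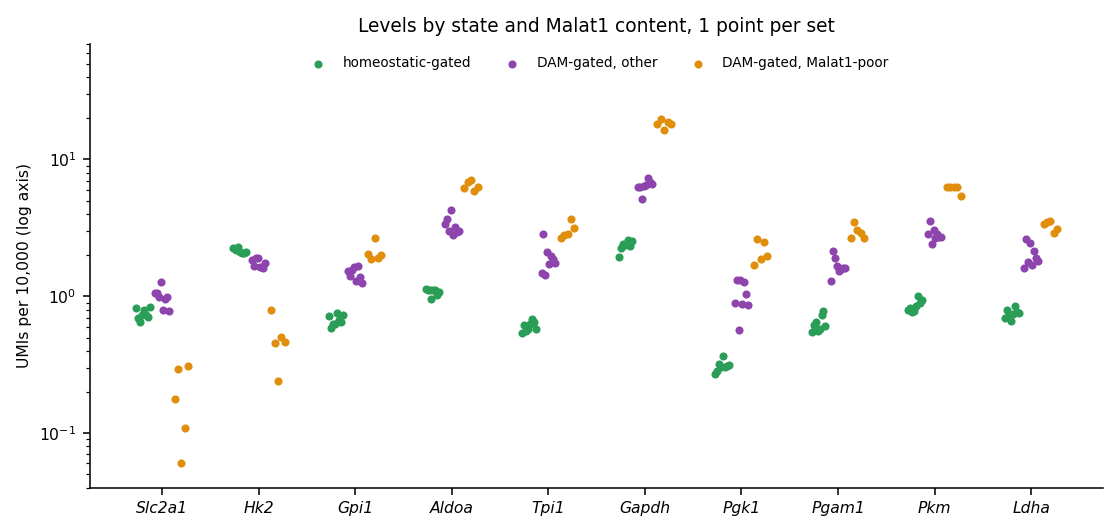
Levels of the 10 members (UMIs per 10,000, log axis) in homeostatic-gated cells, DAM-gated cells with at least 40 Malat1 UMIs per 10,000 and Malat1-poor DAM-gated cells, 1 point per set. Most enzymes step up across the 3 groups, and Hk2 and Slc2a1 are lowest in the Malat1-poor cells.

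Smaller rises were called in 3 other microglial states against the homeostatic-gated cells of the same sets. The homeostatic gate limited the summed level of the DAM list, as stated above. The median of that level over cells was 15.5 in homeostatic-gated and 22.7 in interferon-gated cells. It was 30.3 in inflammatory-gated and 22.5 in MHC class II-gated cells. The member sum rose with that level below the DAM cut as well, and the part of this difference in the rises was not tested. In MHC class II-gated cells (4 sets with at least 20 cells), 8 members were higher and 0 lower, where 6.01% of genes were called higher. Pgk1 rose by 1.08 ± 0.23, Aldoa by 1.01 ± 0.13 and Gpi1 by 0.99 ± 0.16 on the log2 scale (edgeR adjusted p from 1.93e-07 to 0.000957). Slc2a1 had a log2 fold change of 0.48 (adjusted p = 0.063) and Hk2 of 0.05 (adjusted p = 0.896).

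In interferon-gated cells 5 members were higher (7.31% of genes), namely Pgk1 (log2 0.97), Ldha (0.89), Gapdh (0.73), Pkm (0.66) and Aldoa (0.45). Pkm was higher in 4 of 8 sets only. Ldha stood between 0.836 and 1.70 there against an average of 0.75 ± 0.06 in homeostatic-gated cells and was higher in 8 of 8 sets. The Aldoa call was lost without thalamic set 1 (adjusted p = 0.104) or 4 (0.103). In inflammatory-gated cells, chosen by genes such as Il1b and Tnf, 6 members were higher (6.29% of genes), namely Pkm (log2 0.69), Ldha (0.58), Gapdh (0.58), Tpi1 (0.44), Pgam1 (0.41) and Aldoa (0.37). Pgk1 was not called there (log2 0.29, adjusted p = 0.355), and without a filter on low counts only Pkm, Ldha and Gapdh were. The calls of Aldoa, Tpi1 and Pgam1 were each lost without at least 1 of thalamic sets 1 and 4 or HPC set 3 (adjusted p from 0.0507 to 0.217). The dissociation genes moved with this state, 14 of 18 higher and 0 lower (median log2 0.42), whereas 1 of 17 was higher and 6 lower in interferon-gated cells and 1 of 18 higher and 4 lower in MHC class II-gated cells. Their part in the members' values was not tested. Shares of all genes called lower are not given for these states, so the counts of lower genes have no such reference. Hk2 had log2 fold changes of 0.00 in interferon-gated and -0.06 in inflammatory-gated cells. Interferon-gated sums held 21 to 50 cells per set, and the intervals were wide, as for Pgam1 (log2 0.32, 95% interval -0.03 to 0.68). Cycling-gated microglia reached 20 cells in 1 thalamic set only, with a member sum of 18.8, and were not tested.

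Outside microglia, regions were compared in T cells and neutrophils. In T cells edgeR called 0 members, 0 had an unadjusted p under 0.05 (6.62% of all genes did) and 0.0328% of 9140 genes were called. Gapdh averaged 6.26 ± 0.59 in the thalamus and 5.98 ± 0.46 in the HPC (log2 0.04, 95% interval -0.14 to 0.22). In neutrophils, with 3 sets per region, edgeR called 0 members, 0 had an unadjusted p under 0.05 (4.36% of all genes did) and 0.102% of 2937 genes were called. Slc2a1 averaged 1.99 ± 0.03 in thalamic and 1.23 ± 0.43 in HPC neutrophils (log2 0.49, 95% interval -0.04 to 1.02). DESeq2 was not run for these 2 comparisons.

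Across cell classes the sum of the 10 members was highest in monocytes and neutrophils. It was 39.8 ± 14.6 UMIs per 10,000 in monocytes (n = 4 sets), 35.7 ± 3.9 in neutrophils (n = 6), 21.1 ± 1.7 in T cells (n = 8), 17.1 ± 2.9 in dendritic cells (n = 3) and 13.5 ± 2.9 in microglia (n = 8). Single sets with at least 20 cells gave 13.04 in NK cells, 10.6 in B cells and 9.62 in macrophages. DAM-gated microglia, at 25.4 ± 1.9, lay between T cells and neutrophils.

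Against microglia of the same sets, neutrophils had 9 members higher and Hk2 lower (27.9% of all genes higher and 36.9% lower). Pkm stood between 5.67 and 9.90 in neutrophils (log2 2.57 ± 0.17, edgeR adjusted p = 1.12e-15). In microglia it stood between 0.842 and 2.19 over all sets, including those with too few neutrophils for a sum. Monocytes had 9 higher and Hk2 lower as well (25.0% and 33.0%), with Pgk1 at 2.38 ± 0.20 and Ldha at 2.01 ± 0.17 on the log2 scale. Slc2a1 in monocytes (log2 0.50, adjusted p = 0.0392) was higher in 2 of 4 sets and lost its call without thalamic set 1 (log2 0.10, adjusted p = 0.729) or 2 (0.46, adjusted p = 0.146). In neutrophils Tpi1 (log2 0.83) lost its call without HPC set 1 (0.54, adjusted p = 0.0695). The median log2 fold change of all genes was itself -0.29 in neutrophils and -0.22 in monocytes.

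T cells had 7 members higher and 2 lower than microglia (36.4% of all genes higher and 38.6% lower). Ldha, widely used by activated lymphocytes, averaged 2.95 ± 0.20 in T cells and 1.04 ± 0.24 in microglia (log2 1.42 ± 0.13). Hk2 was lower in T cells. It averaged 2.06 ± 0.20 in microglia and 0.175 ± 0.038 in T cells, 12.5-fold lower (log2 -3.65 ± 0.13, edgeR adjusted p = 8.45e-24). T cells also carried microglial marker UMIs, with a median of 9.21 per 10,000 against 186 in microglia, and how much of the Hk2 level in T cells was free RNA was not tested. Slc2a1 was lower as well, at 0.457 ± 0.133 against 0.761 ± 0.061, and Tpi1 did not pass (log2 -0.18, adjusted p = 0.272). Dendritic cells had 2 members higher, Gpi1 (log2 1.38) and Ldha (0.97), and Hk2 lower (-2.15), with 17.1% of genes higher and 23.8% lower and a median of -0.30 over all genes.

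Neighbouring classes were compared member by member in the same fit. Shares over all genes are not given for these pairs, so the counts describe the members and are not read as particular to them. Between monocytes and neutrophils 3 members were higher in neutrophils (Slc2a1, Aldoa and Pkm), 2 were higher in monocytes (Tpi1 and Ldha) and 5 did not pass. All 10 were lower in T cells than in monocytes, and 8 were lower than in neutrophils. Between T cells and dendritic cells 7 members did not pass, with Pkm and Aldoa higher in T cells and Hk2 higher in dendritic cells.

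**Figure D5:**
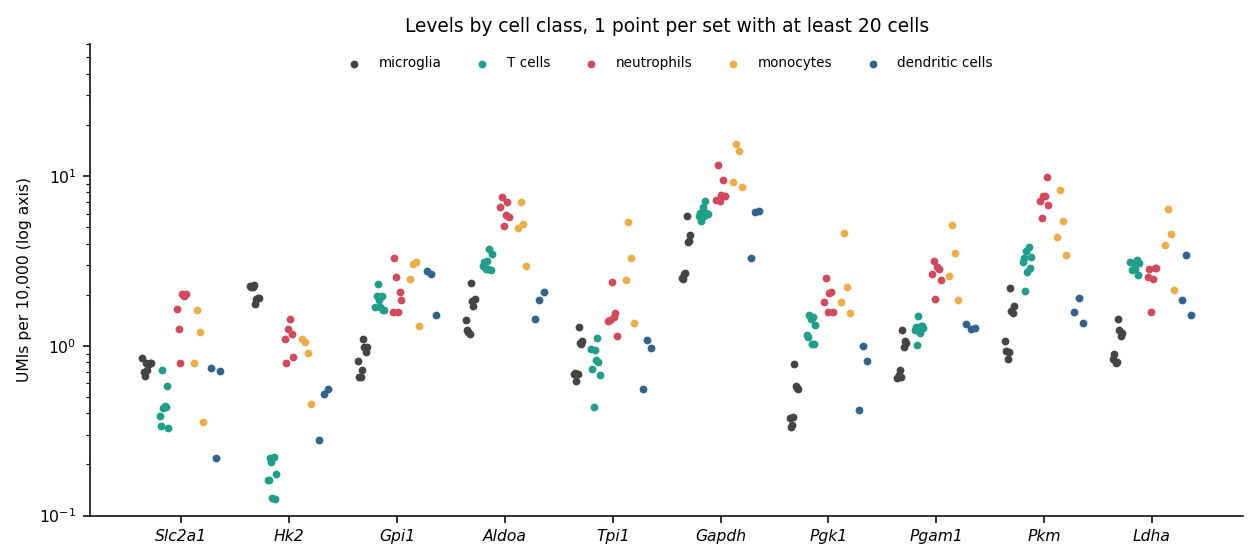
Level of each member (UMIs per 10,000, log axis) in microglia, T cells, neutrophils, monocytes and dendritic cells, 1 point per set with at least 20 cells. Monocytes and neutrophils hold the highest points for most enzymes, while Hk2 is highest in microglia.

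Other genes of the pathway were read against the shares over all genes tested between the states, 24.5% higher and 28.4% lower. Of 22 other glycolysis genes tested between DAM-gated and homeostatic-gated cells, 9 were higher and 5 lower, with a median log2 fold change of 0.20. The lactate exporter Slc16a3 rose from 0.204 ± 0.027 to 0.806 ± 0.224 (log2 2.03 ± 0.11), the enolase Eno1 from 0.760 ± 0.084 to 1.60 ± 0.13 (1.27 ± 0.07), the sugar transporter Slc2a6 by 3.06 and the phosphofructokinase Pfkl by 0.74. The fructose transporter Slc2a5, known as a gene of resting microglia, fell from 1.78 ± 0.39 to 0.281 ± 0.080 (log2 -2.26 ± 0.09, edgeR adjusted p = 1.73e-19), and Pfkfb4, Eno3 and Hk3 were lower by less. Between regions in all microglia, 8 of 26 were higher and 1 lower (8.51% and 4.51% of all genes), among them Slc16a3 (log2 0.92) and Eno1 (0.66), and in the homeostatic-gated and the DAM-gated cells no gene of the list was called.

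Pathways that follow or branch from glycolysis were described in the same way. Of 28 genes of pyruvate entry and the TCA cycle, 11 were higher and 2 lower in DAM-gated cells (median log2 0.15), with Sdhb at 0.83 and Mdh2 at 0.61 and with Dlst and Pdk2 lower. With library totals in place of TMM this became 4 higher and 8 lower, so the direction of that list depended on scaling. Calls over all genes also shifted toward lower under that scaling (counts in the last section), so the shift was not particular to this list. Of 11 pentose phosphate genes 4 were higher, Pgls, Tkt, Taldo1 and Pgd (log2 0.51 to 0.79), and H6pd was lower. In all microglia 5 of 28 and 5 of 11 genes of these lists were higher in the thalamus and 1 and 0 were lower, where 8.51% of all genes were called higher and 4.51% lower.

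Among 18 hypoxia-response genes outside glycolysis, 11 were higher and 3 lower in DAM-gated cells (6 and 6 with library totals). Hif1a, which encodes the regulated subunit of the hypoxia-inducible factor, averaged 1.09 ± 0.13 in homeostatic-gated and 3.50 ± 0.59 in DAM-gated cells (log2 1.87 ± 0.07, edgeR adjusted p = 3.36e-20). Bhlhe40 and Egln3, the latter a prolyl hydroxylase, rose by 4.54 and 3.14 on the log2 scale from levels of 0.0159 and 0.0341. Of 9 regulators of glucose metabolism (against 24.5% of all genes higher and 28.4% lower) 2 were higher, Arrdc4 (log2 1.45) and Rheb (0.29), and 1 was lower, the glucose uptake inhibitor Txnip (-1.38, from 3.08 ± 0.39 to 1.10 ± 0.23). With library totals 1 regulator was higher and 5 were lower. For the hypoxia-response genes and the regulators alike, calls over all genes shifted toward lower under that scaling as well (counts in the last section). Between regions in all microglia 4 of 20 hypoxia-response genes, 3 of 10 regulators and 6 of 19 dissociation genes were higher, against 8.51% of all genes. Lower were 1 hypoxia-response gene, 0 regulators and 0 dissociation genes, against 4.51% of all genes. The regulators had a median log2 fold change of -0.08, against -0.02 over all genes. In DAM-gated cells Mpc1, a subunit of the mitochondrial pyruvate carrier, was higher in the thalamus (log2 0.58 ± 0.11, edgeR adjusted p = 0.00874). It was 1 of 26 tested genes of pyruvate entry and the TCA cycle, where 1.39% of all genes were called.

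Over the 16 sums of homeostatic-gated and DAM-gated cells, 8 members ran closely together. The Pearson correlation of each with the mean of the other members was 0.97 to 0.99 for these, 0.80 for Slc2a1 and -0.86 for Hk2. The points share libraries and fall into 2 groups by state, so the correlations are a description. Among 6965 other genes the 5 with the most similar course were Fabp5 (r = 0.991), a fatty acid-binding protein that is itself on the DAM list, Mif (0.987), a cytokine, Nme2 (0.987), a nucleoside diphosphate kinase, Ybx1 (0.987), which binds RNA, and Eprs (0.986), a tRNA synthetase. Mif averaged 0.564 ± 0.039 in homeostatic-gated and 2.98 ± 0.32 in DAM-gated cells (log2 2.58 ± 0.06), and 0.751 ± 0.017 in HPC and 1.34 ± 0.25 in thalamic microglia (log2 0.91 ± 0.13, edgeR adjusted p = 0.00296).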

How the data were processed

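Single-cell libraries of CD45+ cells (10x Genomics, 1 library per region) were read as gene-by-cell matrices. The authors deposited raw UMI counts, aligned to mm10 with Cell Ranger, version 7.1.0 per the file headers; the study's methods name an earlier version. The default for counting intronic reads differs between these versions, and which setting was used is not given in the sources used here. Multiplexing oligo rows (12) were left out of library sizes. Cells with 200 to 7500 genes and at most 2% mitochondrial UMIs were kept, as in the study. The study named clusters; here cells were assigned by marker gates (a minimum number of markers and a minimum level per 10,000 UMIs), and 747 cells of no class and 634 of several classes were left out. No doublet caller was run.

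Counts were summed per set for groups of at least 20 cells and tested with edgeR 4.0.16 (quasi-likelihood F-test, TMM factors, filterByExpr) in R 4.3.3, p-values being adjusted by Benjamini-Hochberg across every gene in the fit (threshold 0.05). This replaces the cell-level rank test of the study, since cells are not replicates. Fits of states and classes carried the set as a block. The SE of a log2 fold change is its size divided by the square root of F, and intervals are 95% intervals from that SE. They use the normal distribution and are narrower than intervals from the F-test itself would be, so an interval without 0 is not a call. The test was checked on data with known changes. The deviations of same-numbered thalamus and HPC sets in microglia had correlations of 0.522, 0.152, 0.464 and 0.175. Differently numbered sets gave -0.468 to 0.169, so the pairing was not clear for every number. In DAM-gated cells the same-numbered values were 0.015 to 0.14. The region comparison was repeated with the number as a block. Alternatives were DESeq2 1.42.0, other scaling, filters, gates and leaving out each set.

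The members, lists and gates were chosen with earlier results of these data known. All members are named. From the other lists, called genes with the lowest adjusted p were eligible to be named, at most 4 per direction and comparison, and the 5 most similar genes were named by correlation. Of 14 listed DAM markers 13 were measured and 1 gene is not analysed here. Sequences are from RefSeq (GRCm38.p6).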

Additional observations from a re-analysis of the deposited data

Results flagged for a closer look

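In 3 of 80 groups of 4 sets, 1 set of a member lay far from the other 3, by Dixon's criterion (a gap of over 0.829 of the whole range); chance alone is expected to give about 1 such group in 20. Hk2 in thalamic microglia was lowest in set 1, at 1.77 UMIs per 10,000 against 1.90 to 1.91 in the other sets, a gap of 0.9082 of the range. Pgk1 in thalamic microglia was highest in the same set, at 0.779 against 0.559 to 0.580 (0.9052 of the range). That set also had the highest shares of DAM-gated cells (43.4% of microglia) and of Malat1-poor microglia (16.1%), and their part in these 2 values was not tested. Aldoa in homeostatic-gated HPC microglia was lowest in set 4, at 0.957 against 1.10 to 1.13 (0.8678 of the range).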

How the results depend on the processing

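Of 1807 values of single members under alternative settings, 1778 kept their direction or stayed uncalled, 22 lost their call and 7 gained one. No called value turned direction; 81 uncalled values changed sign. Of 362 alternative counts of members called, 10 moved by over 1.5 times. Between regions in all microglia, the count of members lower in the thalamus (1, Hk2) ranged from 0 to 1 when a set was left out and was 0 without HPC set 2 or 4. With the set number as a replicate block, 8 members were higher and 1 lower as before, while calls over all genes were 2138 higher and 1691 lower in place of 1113 and 590. In homeostatic-gated cells the block gave 1 member higher (Pkm) in place of 0. In DAM-gated cells a looser gate gave 1 higher (Gapdh) and 1 lower (Hk2), and a stricter gate left too few HPC cells for a value. Between states the count of members lower in DAM-gated cells (1) was 0 with a stricter gate, a looser gate and the HPC sets alone. In inflammatory-gated cells 3 members in place of 6 were higher with no filter on low counts. In dendritic cells leaving out 1 set gave 2 to 4 members higher, and 4 without thalamic set 4. With library totals in place of TMM scaling, an alternative chosen after seeing the data, calls over all genes between states were 1826 higher and 5217 lower in place of 2736 and 3175, the median log2 fold change of all genes was -0.27, and 8 members were higher. Between regions they were 850 and 979 in place of 1113 and 590. The cause of these changes was not tested. Fewer than 50 cells per set limited the HPC DAM-gated sums in 3 sets.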
